A study of Mus musculus with 30 samples.

Results

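The genes described here are the 85 protein-coding genes of the deposited mouse gene table whose symbols name a cytosolic ribosomal protein (Rpl or Rps and a number, with or without a paralog suffix, Rplp0 to Rplp2 and Rpsa), out of 45594 genes in all. They comprise 53 proteins of the large subunit and 32 of the small subunit. They were followed in poly(A)-selected, strand-specific RNA-seq libraries of retinal organoids, tissue aggregates grown from stem cells that form a layered neural retina, with 3 libraries on each of 10 days of culture: D0, D4, D7 and D10, D12, D15 and D18, and D22, D25 and D32. All libraries came from 1 clone of induced pluripotent stem cells (iPSCs), reprogrammed from day 14.5 embryonic fibroblasts of wild-type Nrl-GFP mice with doxycycline-inducible Oct3/4, Sox2, Klf4 and c-Myc. In these mice the promoter of the rod gene Nrl drives a fluorescent reporter. The D0 material was undifferentiated iPSCs, a culture kept on feeder cells, and the D4 material was 36 whole organoids per library. Later libraries held dissected neural retina, of 30 organoids at D7, of 20 at D10 and of 12 on each day since. The cultures were kept in 5% oxygen until D10 and in 20% afterwards. The medium changed at D7 and at D10, when taurine, 9-cis retinal and insulin-like growth factor 1 were added, and again at D26, so that days and culture conditions cannot be told apart. Replicates of a day were labelled as biological, but all stem from the same clone, and each organoid library pools several organoids.

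Each cytosolic ribosome carries 1 copy of nearly every ribosomal protein, and the genes that encode them are among the most highly expressed of growing cells. Their mRNAs start with a terminal oligopyrimidine (TOP) stretch of pyrimidines, through which growth signals acting by mTOR control their translation. Some of these genes have phenotypes of their own: in mice a mutation of Rpl24 (Belly spot and tail) disturbs the formation of the retina and a mutation of Rpl38 (Tail short) disturbs the skeleton, while in humans loss of 1 allele of RPS19 causes an inherited anaemia. Since the genes have left many processed copies in the genome, reads from a member can be assigned to a near-identical copy, and this bears on several results below.

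The estimated counts of the 30 libraries summed to 16.77 to 24.53 M (M for 1000000 counts), with a median of 19.23 M. In D4 replicate 2, ribosomal RNA and similar transcripts took 25.0% of the counts, and each other library had at most 0.243%. At the ends of the course, Pou5f1, a core gene of pluripotency, averaged 957 CPM at D0, and the rod gene Nrl averaged 819 CPM at D32. Libraries labelled neural retina also held transcripts of pigment epithelium genes. The summed level of 8 such genes was 830 to 1010 CPM at D7 and 1020 to 1190 CPM at D10. Levels are given as counts per 1000000 after TMM scaling (CPM), and a gene is said to rise or fall where edgeR's quasi-likelihood test passed an adjusted p of 0.05 (Benjamini-Hochberg over the 19897 genes tested). Of the 85 members 84 entered this test. Rpl6l, an Rpl6-like gene, had too few counts, with at most 0.451 CPM in any library.

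Ribosomal protein transcripts reached their largest share of the libraries at D4 and their smallest at D32. The 85 members together took a mean of 6.42, 8.55, 6.51, 5.32, 6.64, 7.28, 5.94, 5.55, 3.55 and 2.55% of a library's counts from D0 to D32 in the order of the days. There were thus 2 maxima, at D4 and D15, with a minimum at D10 between them. The 3 libraries of a day lay between 9.34 and 7.12% at D4, with the lowest value in the library rich in ribosomal RNA, between 5.53 and 4.94% at D10, between 7.45 and 7.12% at D15 and between 2.86 and 2.32% at D32. The 10 daily ranges thus overlapped between neighbours in several places, but the D32 values lay below those of every earlier day and the D10 values below those of D7 and D15. With the rows of their genomic copies added, the same shares were 7.69, 10.68, 7.73, 6.53, 8.12, 8.89, 7.28, 6.85, 4.34 and 3.14%, with the same maxima and the same minimum at D10. In bulk tissue, fewer cells of a type and less RNA per cell cannot be told apart, and a share of counts also moves with all other genes.

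**Figure D1:**
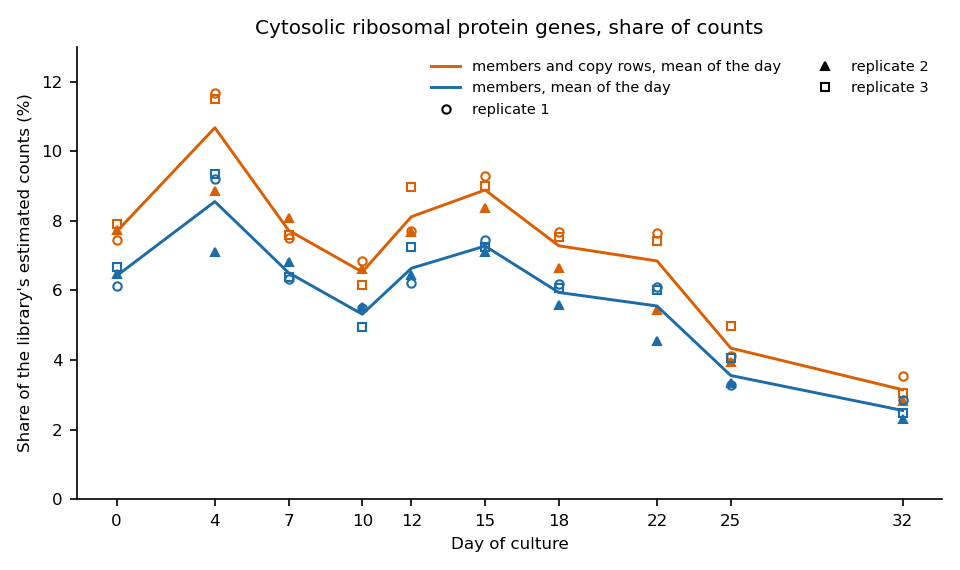
Share of each library's estimated counts (%, y axis) held by the 85 ribosomal protein genes (blue) and by these genes plus their copy rows (orange), against the day of culture. Symbols are single libraries by replicate number and lines join the means of 3 libraries. The means of the members were 8.55% at D4, 5.32% at D10, 7.28% at D15 and 2.55% at D32.

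Over the 10 days 83 of the 84 tested members changed, beside 91.4% of all genes tested. The exception was Rps12, whose counts split with a copy without a fixed proportion (below). By their mean level, 73 of the 85 members were highest at D4, 7 at D0, 3 at D7, 1 at D12 and 1 at D25, and 81 had their single lowest mean at D32. Of the 4 without a single lowest mean at D32, Rpl10l and Rpl39l held no count at D32 and on some earlier days. Rpl3l was lowest at D7 and Rpl6l at D22. When the copies were added to each member, 80 were highest at D4, 3 at D0, 1 at D12 and 1 at D25.

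**Figure D2:**
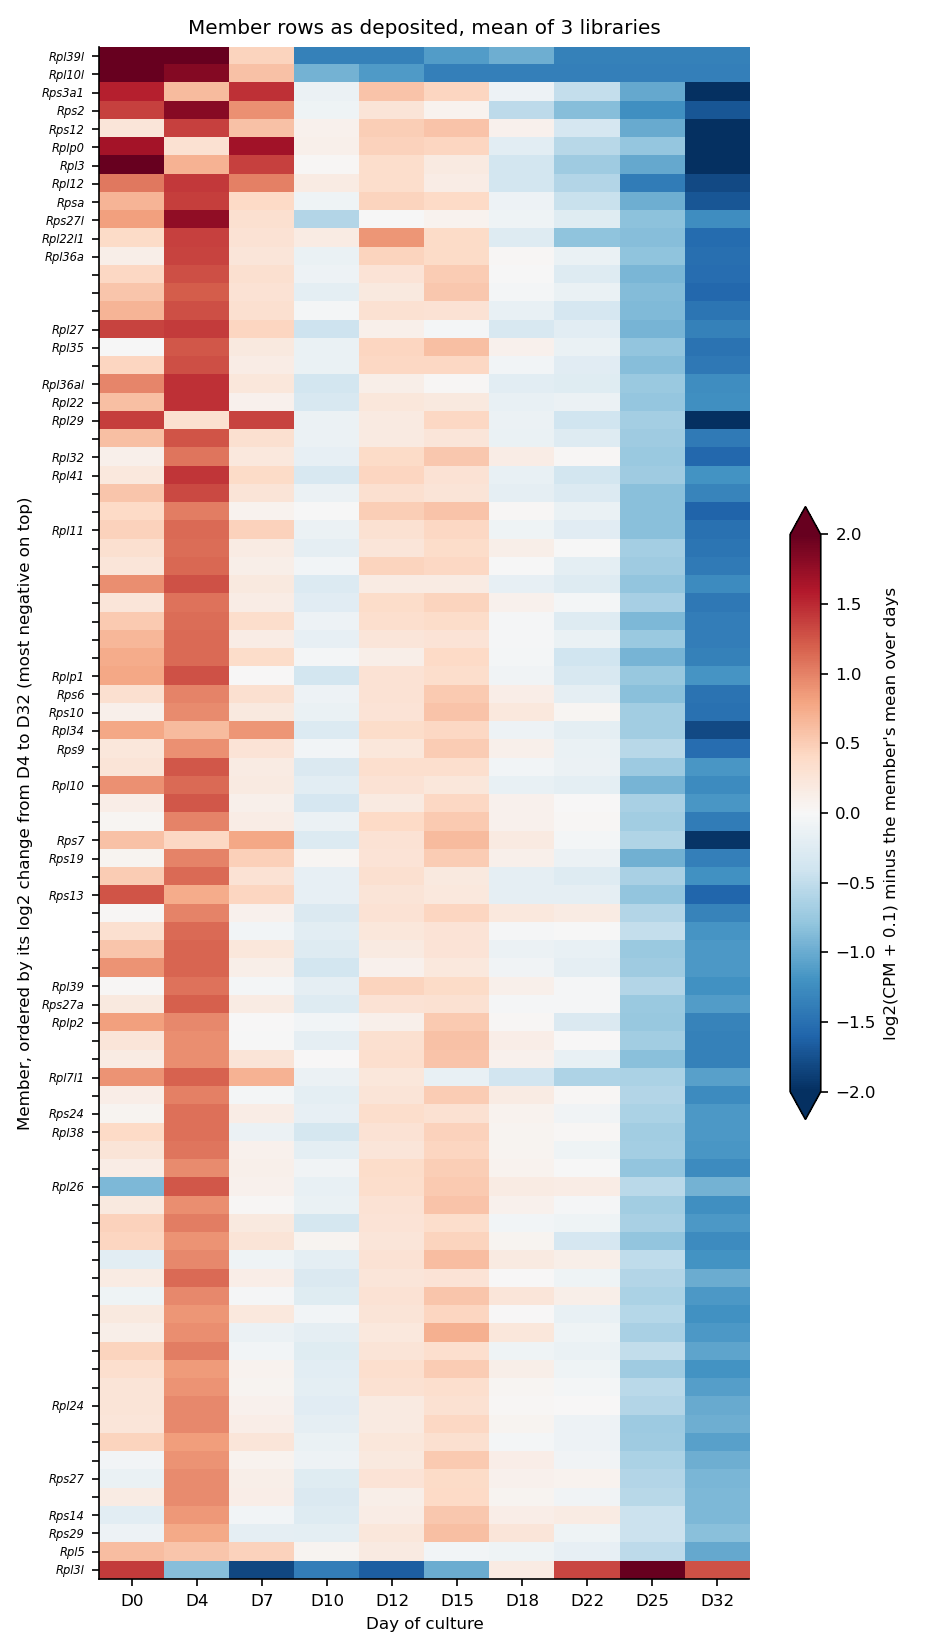
Level of the 84 tested members (rows, ordered by their log2 change in D32 vs D4) at the 10 days (columns), as log2(CPM + 0.1) of the mean of 3 libraries minus the member's own mean over days, from blue (low) to red (high). Of the rows 73 have their highest mean at D4, most are lower at D10 than at D15 and blue at D25 and D32, and Rpl3l, in the bottom row, is highest at D25. Only rows of members described in the text are labelled.

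From the iPSCs to D4, 65 of 84 members changed, 61 higher and 4 lower, beside 51.9% of all genes (27% higher and 24.8% lower), and the median log2 change was 0.71 over members and 0.02 over all genes. This pair of days, like the pairs D15 vs D10 and D25 vs D15 below, was chosen after the levels had been seen, so its counts describe the course and are no independent evidence of its direction. Rpl41, which encodes the shortest protein of the large subunit, had 2839, 3921 and 2739 CPM in the D4 libraries, against 1093, 1348 and 1631 CPM in the D0 libraries (log2 change 1.22 ± 0.22 (SE), adjusted p = 5.4e-05). Rpl35, whose protein sits near the exit tunnel for the nascent chain, had 1183, 1481 and 914 CPM at D4, against 471, 503 and 539.9 CPM at D0 (log2 change 1.24 ± 0.18 (SE), adjusted p = 2.7e-06). For both genes every D4 library lay above every D0 library, as in 58 of 84 members and 23.5% of all genes. Members named for the largest changes of a comparison were picked among those without overlap, so their separation is no added support. Rpl36a rose likewise (log2 change 1.24 ± 0.18 (SE), adjusted p = 4.0e-06). Small-subunit genes rose in 27 of 32 cases with a median of 0.85, and large-subunit genes in 34 of 52 with a median of 0.62, a difference between the subunits that was not tested. Of the 4 that fell, Rpl10l, Rpl39l and Rpl3l are paralogs, described below, and Rps13 rose instead once its copies were added (0.31 on the log2 scale in place of -0.51). With copies added, 75 members changed, 72 of them higher. With libraries scaled by total counts alone, 50 changed, 46 higher and 4 lower, with a median of 0.46 over members and -0.18 over all genes. Without D4 replicate 2, the library rich in ribosomal RNA, 56 changed. Markers of fibroblasts, a cell type used as feeders, were detected at D0: the summed level of 8 fibroblast genes was 40.6 to 88.5 CPM at D4, against 424 to 1190 CPM at D0, with 6 of 8 lower, and that of 8 pluripotency genes was 121 to 655 CPM, against 4960 to 5480 CPM. The part of these other cells in the rise of the members was not tested.

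By D7, in dissected neural retina, most members were close to their D0 level. Of the 84 tested, 18 changed against D0, 2 higher and 16 lower, beside 58.4% of all genes (28.8% higher and 29.6% lower), with a median log2 change of -0.16. Leaving aside the paralogs, the largest fall was that of Rpl27 (55.2, 55 and 49.5 CPM at D7, against 84.5, 101 and 118 CPM at D0, log2 change -0.93 ± 0.18 (SE), adjusted p = 0.00012), and with its copies, which held most of its counts, it fell by 0.63. Rps13, Rplp2, Rpl19, Rpl36al, Rpl10, Rpl4, Rpl22, Rpl38, Rpl23, Rps27l, Rps2 and Rpl6 also fell, by 0.35 (Rpl6) to 0.82 (Rps13). With copies the change of Rps13 was -0.35, and that of Rps2 was -0.38 and no longer passed (adjusted p = 0.065). The 2 that rose were Rps19, needed for processing the small-subunit RNA, with 1272, 1240 and 1155 CPM at D7, against 917, 908 and 890.0 CPM at D0 (log2 change 0.43 ± 0.15 (SE), adjusted p = 0.014), and Rpl26. Rpl26 averaged 921 ± 39 CPM at D7, against 463 ± 29.7 CPM at D0 (SD, n = 3), but with its copies 922 ± 39.1 CPM at D7, against 966 ± 23 CPM at D0, so that the log2 change was 0.99 for the row and -0.07 for the sum. With libraries scaled by total counts alone, 14 members changed, 5 higher and 9 lower, and the median of members was 0.04.

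Between D7 and D10 all the members that changed fell: 26 of 84, beside 37.8% of all genes (20% higher and 17.8% lower), with a median log2 change of -0.38. Rps2, a small-subunit protein at the entry of the mRNA channel, had 902, 922 and 797 CPM at D10, against 1712, 1816 and 1718 CPM at D7 (log2 change -1.0 ± 0.15 (SE), adjusted p = 1.7e-05). Rpl11, which with Rpl5 binds Mdm2 when ribosome assembly is disturbed, had 575, 670.3 and 467 CPM at D10, against 848, 873 and 839 CPM at D7 (log2 change -0.58 ± 0.15 (SE), adjusted p = 0.0029). In both genes the 3 later libraries lay below the 3 earlier ones, as in 63 of 84 members and 27.2% of all genes. The p53-inducible paralog Rps27l fell by 0.91, while its partner Rps27 had a log2 change of -0.35 that did not pass (adjusted p = 0.074). The count depended on single libraries: it was 12 without D10 replicate 3, 14 without D7 replicate 2 and 10 with scaling by total counts alone, all of them falls.

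From D10 to D15 the direction turned. Of 84 members 44 changed and all 44 rose, beside 14.3% of all genes (9% higher and 5.34% lower), with a median log2 change of 0.56. Rpl38 had 567, 438 and 611 CPM at D15, against 339, 296 and 285 CPM at D10 (log2 change 0.81 ± 0.17 (SE), adjusted p = 0.0013). Rps14, a small-subunit protein of the platform, had 1729, 1389 and 1710 CPM at D15, against 962, 924 and 879.6 CPM at D10 (log2 change 0.80 ± 0.16 (SE), adjusted p = 0.0011). Every D15 library of both genes lay above every D10 library, as in 68 of 84 members and 23.1% of all genes. Rpl35a rose by 0.79. Rpl7l1 had a log2 change of -0.02 (adjusted p = 0.94). The count was 19 without D10 replicate 3, 24 without D15 replicate 3 and 29 without either D10 replicate 2 or D15 replicate 1, with rises in each case. The summed level of 8 pigment epithelium genes was 55.1 to 185 CPM at D15, against 1020 to 1190 CPM at D10, with 6 of 7 tested lower. The part of this shift in the rise of the members was not tested.

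Later the members fell together. From D15 to D25, 74 of 84 changed, 73 lower and 1 higher, beside 39.5% of all genes (19.4% higher and 20.1% lower), with a median log2 change of -1.11. From D10 to D25, 52 changed, 51 lower and 1 higher, beside 45.5% of all genes (23.9% higher and 21.6% lower), with a median of -0.51. Rps19 had 453, 403 and 487 CPM at D25, against 994, 886 and 813 CPM at D10 (log2 change -1.0 ± 0.15 (SE), adjusted p = 3.7e-06). Rps2 had 344, 422 and 424 CPM at D25, against 902, 922 and 797 CPM at D10 (log2 change -1.14 ± 0.15 (SE), adjusted p = 1.1e-06). In both genes each D25 value was below each D10 value, as in 56 of 84 members and 28.8% of all genes. Rpl12 fell by 1.55 by its own row and by 1.09 with its copies. The single riser was the muscle paralog Rpl3l. Without D25 replicate 1 or without D25 replicate 2 the number changed in D25 vs D10 was 34 each, 33 of them lower.

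From D25 to D32 all changed members fell, 52 of 84, beside 23.1% of all genes (9.31% higher and 13.8% lower), with a median log2 change of -0.52. Rps9 had 320.4, 321 and 293 CPM at D32, against 509, 593 and 725 CPM at D25 (log2 change -0.97 ± 0.17 (SE), adjusted p = 0.00019). Rpl32 had 394, 290.5 and 356 CPM at D32, against 589, 526 and 739 CPM at D25 (log2 change -0.83 ± 0.15 (SE), adjusted p = 0.00024). In both genes every D32 value was below every D25 value, as in 66 of 84 members and 23.3% of all genes. Rps10 fell by 0.80. The count was 19 without D25 replicate 3, 24 without D32 replicate 2 and 32 without D32 replicate 3, again with falls only. The summed level of 10 photoreceptor genes was 9260 to 12200 CPM at D32, against 5660 to 8910 CPM at D25, and that of 10 proliferation genes was 149 to 168 CPM at D32, against 634 to 965 CPM at D25. The part of these shifts in cell content was not tested.

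Over the whole organoid course, D32 against D4, 83 of 84 members changed, 82 lower and 1 higher, beside 72.2% of all genes (38.3% higher and 33.9% lower). The median log2 change was -2.40 over members and 0.16 over all genes. The median was -2.38 in the large subunit and -2.40 in the small subunit. With libraries scaled by total counts alone, the median of all genes shifted to 0.76 and that of the members to -1.74, with the same 1 higher and 82 lower. Rps2 had 300.0, 299.9 and 251 CPM at D32, against 2650, 3950 and 3246 CPM at D4 (log2 change -3.53 ± 0.17 (SE), adjusted p = 1.6e-15). Rpsa, a small-subunit protein also known as the laminin receptor, had 530.3, 471 and 441 CPM at D32, against 3890, 4448 and 3986 CPM at D4 (log2 change -3.09 ± 0.19 (SE), adjusted p = 2.3e-13). Relative to the median member, Rps2 lay 1.34 log2 units above at D4 and 0.10 above at D32. At the other end, Rps29 fell by 1.60 and Rps14 by 1.77. Rps29 had 319, 354 and 280.0 CPM at D32, against 770.0, 1113 and 999.5 CPM at D4, and Rps14 had 663, 528 and 582 CPM at D32, against 1825, 2478 and 1758 CPM at D4. In both genes every D32 library lay below every D4 library, as in 82 of 84 members and 32% of all genes. The row of Rpl5 fell by only 1.59, but with its copy by 2.48. The summed level of the proliferation genes was 149 to 168 CPM at D32, against 4080 to 5580 CPM at D4, with 10 of 10 lower (median -5.57), and the part of the loss of dividing cells was not tested.

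**Figure D3:**
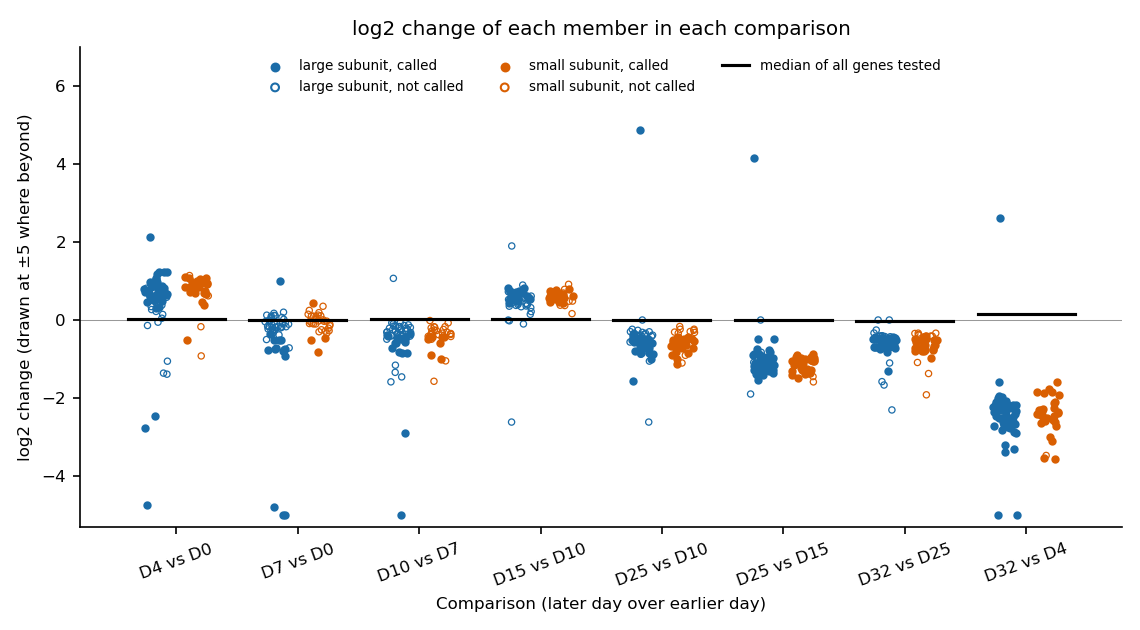
log2 change of each tested member (y axis, later day over earlier day, drawn at ±5 where beyond) in the 8 comparisons of days (x axis), for the large subunit (blue) and the small subunit (orange). Filled points passed an adjusted p of 0.05, open points did not, and black bars are the median of all 19897 genes tested. The clouds of both subunits lie together above the bars in D4 vs D0 and D15 vs D10 and below them in D10 vs D7 and from D25 on.

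Rps6, Rpl24, Rpl38 and Rps19, members with known phenotypes or signalling roles, were each highest at D4 and lowest at D32. Rps6, the substrate of S6 kinase downstream of mTOR, averaged 1028 ± 149.7 CPM at D0, 1634 ± 141 at D4, 771 ± 72.2 at D10, 1182 ± 41.2 at D15 and 297 ± 36.7 at D32 (SD, n = 3). It rose in D4 vs D0 (log2 change 0.67 ± 0.18 (SE), adjusted p = 0.0031) and fell in D32 vs D4 (log2 change -2.46 ± 0.19 (SE), adjusted p = 1.5e-11). Rpl24, the Belly spot and tail gene, averaged 707 ± 6.97 CPM at D0, 1152 ± 221 at D4, 628 ± 23.9 at D7, 502 ± 40.1 at D10, 733 ± 37 at D15 and 294 ± 41.9 at D32. Its fall in D32 vs D4 was -1.97 ± 0.15 (SE), smaller in size than the median of the members. Rpl38 averaged 841 ± 59.7 CPM at D4, 360.2 ± 18.9 at D7, 307 ± 28.4 at D10 and 538 ± 89.8 at D15. Rps19 averaged 1732 ± 60.7 CPM at D4, 1222 ± 60.2 at D7, 898 ± 91.1 at D10 and 1247 ± 132 at D15, and it was 1 of the 2 risers in D7 vs D0. Rps27a, which is made as a fusion with ubiquitin, kept its distance from the median member within 0.29 log2 units over all 10 days. Rplp1 and Rplp2, acidic proteins of the stalk that recruits translation factors, varied widely within a day: Rplp1 had 619, 344 and 1232 CPM in the 3 libraries of D12, and Rplp2 had 249, 154 and 408 CPM, in both genes lowest in replicate 2 and highest in replicate 3.

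The lowest and highest members differed by orders of magnitude. Per kilobase of transcript and over all libraries, Rpl41, Rps24 and Rps27 had mean levels of 2545, 2477 and 2266 CPM per kilobase. Their order changed with the day: Rpl41 led at D4 with 6113 CPM per kilobase, against 4959 for Rps24, while at D32 Rps27 had 1143, Rps24 1035 and Rpl41 987.5 CPM per kilobase. Leaving out Rpl6l and the tissue-restricted paralogs, Rpl12 and Rpl5 had the lowest, 46.7 and 52.3 CPM per kilobase, and both are rows whose counts lay mostly in a copy.

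Among the paralogs, a pair known from germ cells of the testis fell to few or no counts by D10, while a muscle paralog was detected at D0, was lower from D4 to D15 and was highest at D25. Rpl10l, which stands in for the X-linked Rpl10 in male germ cells, had 19.6, 19 and 28.8 CPM in the iPSCs, 0.963, 0.546 and 0.948 CPM at D4 and 0.259, 0.485 and 0.114 CPM at D7. From D15 on no library held a count. The level at D32 was therefore at least 464-fold lower than at D0 and at least 16.9-fold lower than at D4, taking a limit of 3 counts over the 3 libraries of D32. Rpl39l, the germ cell partner of Rpl39, had 12, 8.6 and 11.7 CPM at D0, 1.59, 3.12 and 1.23 CPM at D4, 0.31, 0.323 and 0.114 CPM at D7 and no count at D10. Its level at D32 was at least 223-fold lower than at D0, and the later days held at most 1.57 counts in a library. Both genes fell in D4 vs D0 (adjusted p = 3.3e-07 for Rpl10l and 0.00042 for Rpl39l), on the way to the day at which most other members peaked. Rpl39 itself rose there, with 1207, 1530 and 721 CPM at D4, against 617, 543 and 489 CPM at D0 (log2 change 1.07, adjusted p = 0.00012), while the row of Rpl10 had a change of 0.22 that did not pass and rose by 0.51 with its copies.

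Rpl3l, the paralog of Rpl3 in striated muscle, was the only member that was higher at D32 than at D4. It had 0.994, 0.881 and 1.62 CPM at D0, 0.17, 0.156 and 0.167 CPM at D4 and at most 0.214 CPM in any library from D7 to D15. It then had 0.316, 0.354 and 0.632 CPM at D18, 0.822, 1.47 and 1.04 at D22, 2.57, 3.17 and 2.09 at D25 and 0.585, 1.23 and 1.33 at D32. The level climbed on each of the 3 steps to D25, without overlap of neighbouring days, and was lower at D32 (log2 change of 4.88 in D25 vs D10 and -1.31 in D32 vs D25, adjusted p = 2.7e-08 and 0.016). These levels rest on 169 counts at D25 and 5.4 counts at D10 over 3 libraries, against summed levels of Rpl3 with its copies of 672, 678 and 816 CPM at D25. In the same days the photoreceptor list had a summed level of 5660 to 8910 CPM at D25, against 314 to 365 CPM at D15, and its part in the rise of Rpl3l was not tested.

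The paralogs with broad expression, like their partners, were highest at D4 and lowest at D32 with copies added, and differed in between. Rpl22l1, which acts in part against its partner Rpl22 in splicing and development, averaged 301 ± 141 CPM at D4, 130.3 ± 15.9 at D10, 215 ± 51.8 at D12, 151 ± 16.2 at D15 and 64.8 ± 7.29 at D25. It fell in D25 vs D10 (log2 change -1.01 ± 0.25 (SE), adjusted p = 0.0017), where Rpl22 fell by 0.45. Rps27l averaged 348 ± 112 CPM at D4, 127 ± 13.4 at D7 and 67.8 ± 10.9 at D10, and Rps27 1419 ± 329, 799 ± 7.14 and 625 ± 55 CPM on the same days. Rpl36al, a partner of Rpl36a, fell in D7 vs D0 (log2 change -0.75 ± 0.17 (SE), adjusted p = 0.0005), where Rpl36a had a log2 change of 0.12 that did not pass (adjusted p = 0.61). The differences between paralog and partner were not tested themselves. Rpl7l1, a paralog of Rpl7, was highest at D4 and was not among those that rose in D15 vs D10, with 121, 130.0 and 123 CPM at D15, against 131, 137 and 110.5 CPM at D10, where the 2 days overlapped.

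**Figure D4:**
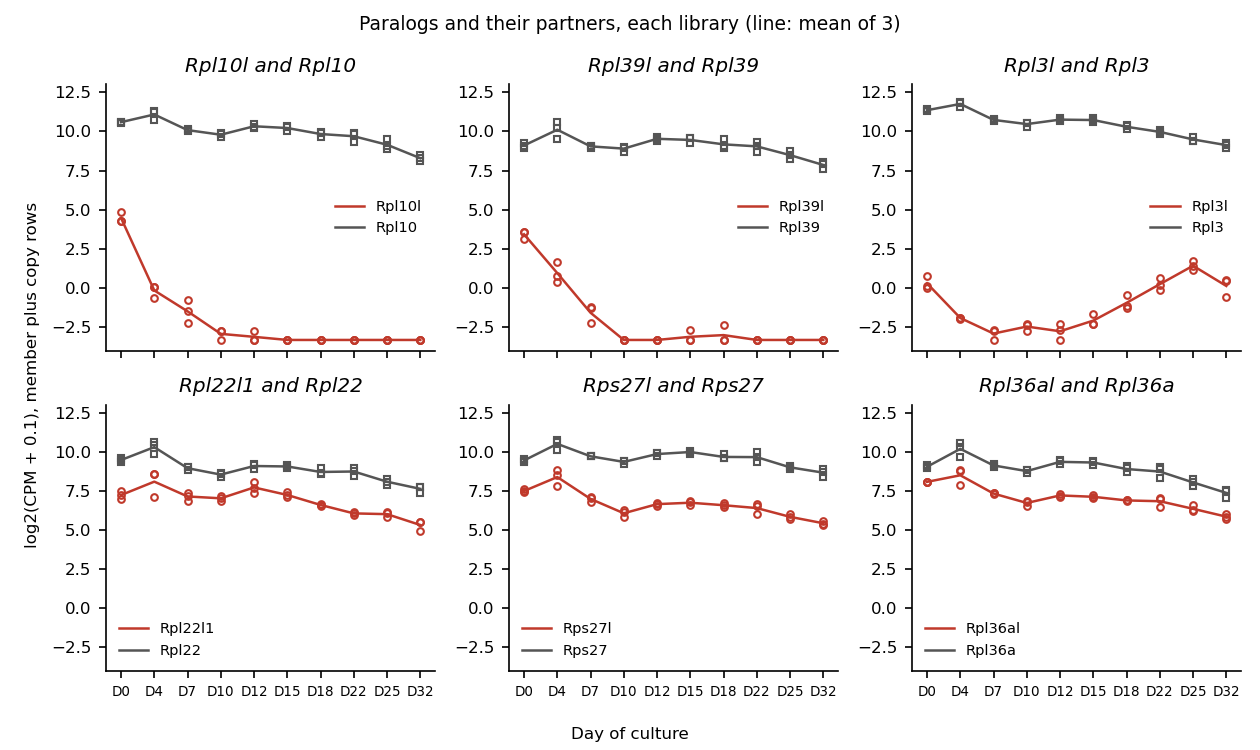
Level of 6 paralogs (red) and their partners (grey) as log2(CPM + 0.1), member plus copy rows, in each library (symbols) at the 10 days, with lines joining the means. Rpl10l and Rpl39l drop to the floor by D10, Rpl3l dips from D4 to D15 and peaks at D25 near 2.61 CPM, and the 3 other paralogs are highest at D4 and lowest at D32, as their partners are.

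Promoter sequences from RefSeq (GRCm38.p6) were at hand for 64 members with 76 annotated starts. A run of at least 8 consecutive C or T on the coding strand, within 20 bases on either side of the start, stood in 31 of 76 member promoters (40.8%) and in 16% of all 32851 promoters. From 250 bases before to 50 after the start, on either strand, CCGGAAG (the core bound by ETS factors) occurred in 35.5% of member promoters and 8.86% of all, AAGATGGC (the YY1 core) in 10.5% and 2.75%, CACGTG in 10.5% and 7.15%, and TATAAA in 9.21% and 13.6%. These are matches of letters and not shown to be sites. The stretch from 40 bases before to 20 bases after the start is printed for 4 members that were highest at D4 and lowest at D32 and for the 3 restricted paralogs, with the longest pyrimidine run within 20 bases of the start in capitals.
Rps6 (chr4:86857348-86857407, minus strand): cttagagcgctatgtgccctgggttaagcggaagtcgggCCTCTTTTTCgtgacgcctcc
Rps27 (chr3:90213629-90213688, minus strand): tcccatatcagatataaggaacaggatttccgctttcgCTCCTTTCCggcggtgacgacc
Rpl22l1 (chr3:28805468-28805527, plus strand): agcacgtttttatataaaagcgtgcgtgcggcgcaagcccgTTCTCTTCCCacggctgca
Rpl24 (chr16:55966235-55966294, plus strand): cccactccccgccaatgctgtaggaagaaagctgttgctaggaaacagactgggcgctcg
Rpl10l (chr12:66284382-66284441, minus strand): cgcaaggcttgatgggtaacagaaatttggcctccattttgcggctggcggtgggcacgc
Rpl39l (chr16:10170188-10170247, plus strand): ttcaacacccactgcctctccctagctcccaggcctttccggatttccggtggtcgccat
Rpl3l (chr17:24727786-24727845, plus strand): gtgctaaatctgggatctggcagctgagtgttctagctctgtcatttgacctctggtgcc
Rps6, Rps27 and Rpl22l1 carry runs of 10, 9 and 10 pyrimidines, and Rpl24 and the 3 restricted paralogs have none of at least 8 within 20 bases of the start.

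The libraries of replicate 2 from D10 to D25 stood apart in 6 members. In a test of replicate 2 against replicates 1 and 3 over these 6 days, 12 of 82 members differed, 6 higher and 6 lower, beside 4.71% of all genes (2.28% higher and 2.43% lower). This contrast was set because reads shared with copies were already known to differ in replicate 2 of these days. Its counts therefore describe that difference and are no independent evidence of it. The number that differed depended on the method and on single libraries: it was 30 with DESeq2 (7 higher and 23 lower), 33 with no filter (6 higher and 27 lower), 6 without D22 replicate 2, 7 without D12 replicate 2 and 34 without D25 replicate 1. Rplp0, Rps3a1, Rpl3 and Rpl29 were higher in replicate 2 by 2.47, 2.36, 2.21 and 2.17 on the log2 scale, and Rpl34 and Rps7 by 1.41 each. Rpl3, a core protein at the peptidyl transferase centre, had 1147 CPM in replicate 2 of D10, against 233 and 185 CPM in replicates 1 and 3. Rps3a1 had 1450 CPM in replicate 2 of D15, against 225 and 238 CPM in replicates 1 and 3. In all 6 genes and on all 6 days replicate 2 was above both others. These genes were called from the same libraries, so this describes the call and adds no evidence. The lower members moved less: Rpl28, Rps6, Rpl13, Rpl12 and Rpl37a were among them and differed by -0.54 to -0.29.

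The rows of near-identical copies moved the other way. For Rpl3, whose gene lies on chromosome 15, the copy is Rpl3-ps1 on chromosome X (chrX:13202571-13203780, a processed pseudogene without introns). Of the joint counts, 12 to 31.9% stood in copy rows in replicate 2 from D10 to D25, against 82.2 to 86.5% in replicates 1 and 3. The median copy share of the 3 libraries was 17.4% at D0, 76.0% at D4, 23.3% at D7 and 85.0% at D32. The libraries thus fell into a set with most Rpl3 counts in the member (D0, D7 and replicate 2 of D10 to D25) and a set with most in the copy (D4, D32 and the rest). The same libraries had low and high copy shares for Rps3a1 with Rps3a2 on chromosome 14 (11.5 to 31.3% in replicate 2, against 82.9 to 87.5%), for Rplp0, for Rpl29, for Rpl34 and for Rps7, where the low set had 41.9 to 56.3% in replicate 2, against 78.4 to 85.3%. Summed with the copies, the difference of replicate 2 was -0.12 for Rpl3, -0.09 for Rps3a1, 0.20 for Rpl29, 0.04 for Rpl34 and 0.00 for Rps7, none past the threshold. Rplp0, the stalk protein that anchors Rplp1 and Rplp2, still differed by 1.02 (adjusted p = 9.9e-06 by edgeR's quasi-likelihood test). Its main copy, Gm9625 on chromosome 13, is less like it, with 24 mismatches over 954 aligned bases. Gm9625 held 51.6% of the mean level of all Rplp0 copy rows. Whether this bears on the remaining difference was not tested. What sets the libraries apart was not tested.

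**Figure D5:**
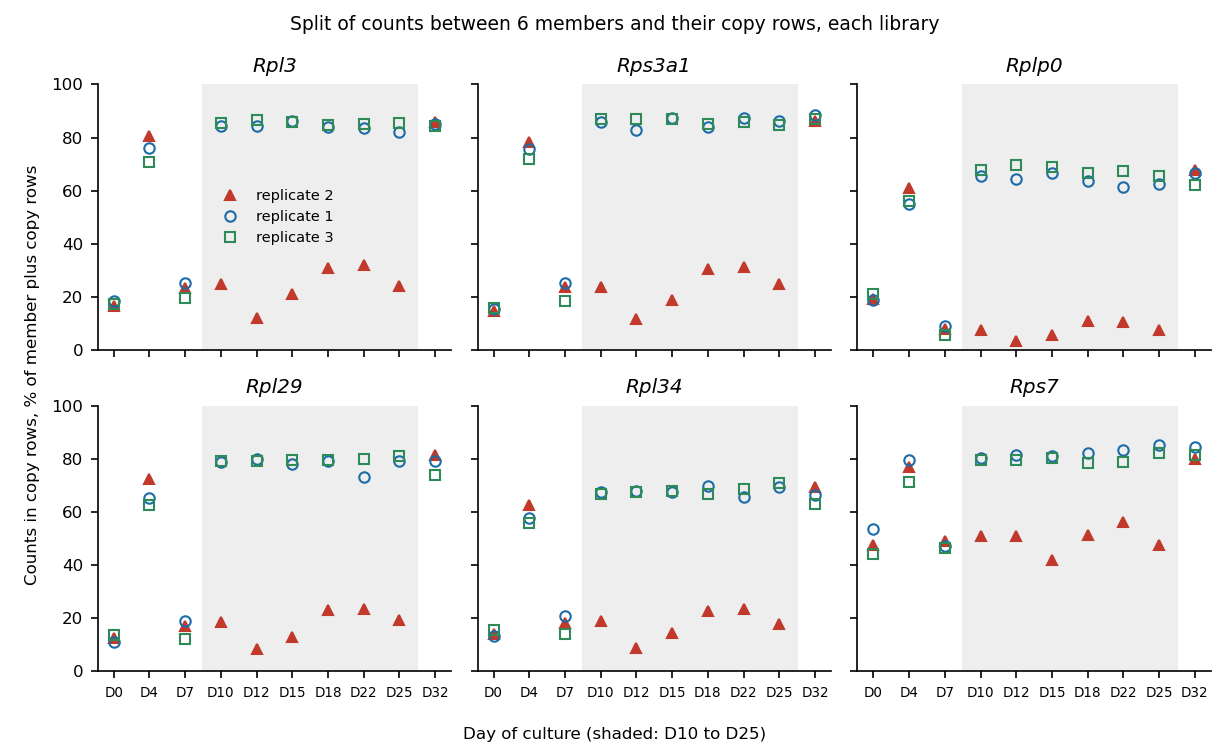
Share of counts in copy rows (%, y axis, of member plus copy rows) for 6 members in each library, by day, with replicate 2 as filled triangles and replicates 1 and 3 as open circles and squares. From D10 to D25 (shaded) replicate 2 sits low, for Rpl3 at 12 to 31.9%, and the others sit high, at 82.2 to 86.5%, while the 3 replicates stay together at D0, D4, D7 and D32.

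How little separates a member from its copy is seen in the transcripts (GENCODE M21). Over the aligned length Rpl3-ps1 differs from the Rpl3 transcript at 2 of 1210 bases, Rps3a2 from Rps3a1 at 4 of 792, Rpl34-ps1 from Rpl34 at 2 of 354, and Gm6472 from Rps7 at 4 of 651. A stretch of coding sequence around 1 such difference is given for 3 pairs, with the differing base in capitals. Positions are counted from 1 at the 5′ end of the member's transcript, and the differences are C137A for Rpl3, T349C for Rps3a1 and T222C for Rpl34, the member's base first.
Rpl3 (chromosome 15): ggcttcctgcctcgCaagcgcagcagccg
Rpl3-ps1 (chromosome X): ggcttcctgcctcgAaagcgcagcagccg
Rps3a1 (chromosome 3): gaagtgagccttgcTgatctacagaatga
Rps3a2 (chromosome 14): gaagtgagccttgcCgatctacagaatga
Rpl34 (chromosome 3): aaagcacctaaatcTgcatgtggcgtgtg
Rpl34-ps1 (chromosome 6): aaagcacctaaatcCgcatgtggcgtgtg
Within the aligned length, a read that covers no differing base fits both transcripts of its pair equally.

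For other members the copy had no mismatch over its aligned length, so that a read within an ungapped stretch of it could not tell the 2 apart. Gm15500 matches Rpl5 over 1018 bases and held 93 to 97.3% of their joint counts in every group of libraries, and Gm10275 matches Rpl12 over 634 bases and held 90.3 to 95.5%. Rps12 and Rps12-ps3 on chromosome 19 match over 475 bases with 1 gap, and here the split differed between libraries of the same day. Rps12 was listed at 0 in D0 replicate 1, D4 replicate 1 and D12 replicate 2, with 526, 897 and 509 CPM in replicate 3 of the same days. Summed with its copies Rps12 had 248, 227 and 216 CPM at D32, against 2168, 2482 and 2097 CPM at D4, without overlap (log2 change -3.29, adjusted p = 8.7e-13 by edgeR's quasi-likelihood test). Summed Rpl5 rose in D4 vs D0 by 0.83 and in D15 vs D10 by 0.58, where its own row had changes of -0.06 and -0.10. Rpl3 summed rose by 0.41 in D4 vs D0, where the row alone had a log2 change of -1.39 that did not pass.

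Genes that work with the ribosomal proteins moved partly with them. All 16 listed translation factors and other genes with TOP mRNAs fell in D32 vs D4 (median -2.54), beside 33.9% of all genes, among them Npm1 (-4.82), a nucleolar chaperone, and Eef1b2 (-3.04), the exchange factor of elongation factor 1, and 10 of 16 rose in D4 vs D0, beside 27% of all genes. Rack1 and Fau, ribosomal proteins named outside the Rpl and Rps scheme, fell in D32 vs D4 by 2.54 and 1.52. Of 33 ribosome biogenesis factors, 26 fell in D7 vs D0, beside 29.6% of all genes, and 17 in D25 vs D10, beside 21.6%. In D25 vs D15, 24 fell, beside 20.1% of all genes. In D32 vs D25, 10 fell and 2 rose, beside 13.8% and 9.31% of all genes. In D32 vs D4, 32 of the 33 fell and 1 rose (median -2.58), beside 33.9% and 38.3% of all genes. In D4 vs D0, where 61 of 84 members rose, 1 of the 33 rose and 5 fell (median -0.05), beside 27% and 24.8% of all genes. In D10 vs D7, 31 of 33 fell with a median of -1.37, beside 17.8% of all genes, among them the nucleolar helicase Ddx21 (-1.87) and the methyltransferase Nop2 (-1.87), beside a median of -0.38 over the members. In D15 vs D10, where 44 members rose, none of the 33 was called by edgeR's quasi-likelihood test (median 0.22), beside 14.3% of all genes. Of the 33, 7 had an unadjusted p under 0.05 in that test. The 14 genes of RNA polymerase I and its factors had 11 falls in D10 vs D7 (median -0.80), beside 17.8% of all genes. In D4 vs D0, 2 of them rose and 5 fell (median -0.05). They had no call in D15 vs D10 by edgeR's quasi-likelihood test, with 3 under an unadjusted p of 0.05. In D32 vs D4, 13 of these 14 genes fell (median -1.38), beside 33.9% of all genes. Mitochondrial ribosomal proteins, 77 genes, had 6 higher and 6 lower in D25 vs D10 (median 0.06), beside 23.9% and 21.6% of all genes. The 84 cytosolic members had 51 falls and 1 rise there. In D32 vs D4, 70 of the 77 mitochondrial genes fell (median -1.25), beside 33.9% of all genes. Of 12 regulators of TOP mRNAs, 2 rose and 6 fell in D32 vs D4, beside 38.3% and 33.9% of all genes. The repressor genes Larp1 and Eif4ebp1 fell by 1.23 and 2.88. Of 12 growth regulators, 5 rose and 7 fell in D32 vs D4, beside the same shares of all genes. Myc, an activator of ribosomal genes, fell by 2.46, and Mxi1 and Mxd1, antagonists of Myc, rose by 2.89 and 2.74. These genes, like Larp1 and Eif4ebp1, come from lists that changed in both directions. Their part in the fall of the members was not tested. The differences between these lists and the members were not tested.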

How the data were processed

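Gene expression was measured by strand-specific sequencing of poly(A) RNA in 30 libraries, 3 for each of 10 days. The submitters' processing notes name Trimmomatic 0.36 (a read trimmer), kallisto 0.42.4 (a pseudoaligner), edgeR and the build GRCm38.p4. The deposited gene table holds the authors' estimated counts per gene, not normalised, and the deposited normalised table holds their normalised signal, used here in 1 alternative only. How transcript values were combined per gene is not given in the sources used here. Columns that named no sample, 9 over all deposited files, were not used. kallisto divides reads that fit several transcripts among them, so rows of near-identical genes share reads, and the depth of 16.77 to 24.53 M counts per library limits only the rarest members.

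The estimated counts were rounded to whole numbers and genes with low counts were removed (edgeR filterByExpr, minimum count 10, minimum total 15), which left 19897 genes. Levels were scaled with TMM factors. One edgeR 4.0.16 quasi-likelihood model (R 4.3.3) was fitted to all 10 days, and contrasts of days were tested with Benjamini-Hochberg adjustment over all genes at 0.05. Replicate 2 of D10 to D25 was set against replicates 1 and 3 in a model with day as a term. The labels call the replicates biological but name no separate sources, so p-values measure the spread between these libraries. A row of another gene counted as a copy of a member where at least 20% of its own 31-base words were found in the member's transcripts (GENCODE M21). This assigned 590 rows to 79 members, and member plus copy rows were also tested as sums.

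Named members were the 4 largest rises and 4 largest falls per comparison among called members whose libraries did not overlap between the days, the 3 largest differences each way in replicate 2, the paralogs with their partners, the stalk proteins, Rpsa, Rpl5, Rpl11, Rpl24, Rpl38, Rps6, Rps19, Rps27a, members with 0 counts and the highest and lowest members. Others named were chosen after their values were seen. The members and lists were chosen with earlier results of these data known. Alternatives were RLE factors, library size alone, no filter, DESeq2 1.42.0, limma 3.58.1 on log2 of the deposited signal, summed copy rows, subsets of libraries, a replicate block and leaving out each library. The method was tested on simulated counts with the same spread for all genes, changes at D25 only and no reads shared between rows. That simulation does not cover rows whose counts split with copies. Replicate numbers did not pair the libraries in the comparisons of days that were planned: in D25 vs D10, for example, the deviations of same-numbered libraries correlated at 0.001, 0.228 and 0.099. In D25 vs D15, added after seeing the data, all 3 pairs were over 0.1 (0.16, 0.301 and 0.219), and the block there changed 74 calls to 77. A list gene that also stood on a patch scaffold was counted once. Some genes that the rule names are not reported here.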

Additional observations from a re-analysis of the deposited data

How the results depend on the processing

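The planned and added comparisons of days kept most called members on the same side under the alternatives run that made calls, but several counts depended on them. With library size alone the counts were 10 for D10 vs D7, 27 for D32 vs D25, 24 for D15 vs D10 and 20 for replicate 2 (6 higher and 14 lower). With only replicate 2 of D10 to D25 kept they were 3 for D10 vs D7, 23 for D25 vs D10, 12 for D32 vs D25 and 0 for D15 vs D10 by edgeR's quasi-likelihood test, with 1 library on each of these days and a median change of 0.42. With only the libraries of the days compared, D10 vs D7 had 55. For replicate 2, no filter gave 33, DESeq2 30 and summed copies 7 (1 higher and 6 lower). The causes were not tested, other than that subsets hold fewer libraries. Leaving out 1 library in turn gave 82 to 83 members over all days, 14 to 19 in D7 vs D0, 12 to 37 in D10 vs D7, 34 to 60 in D25 vs D10, 19 to 58 in D32 vs D25, 83 to 84 in D32 vs D4, 56 to 66 in D4 vs D0, 19 to 52 in D15 vs D10, 72 to 77 in D25 vs D15 and 6 (without D22 replicate 2) to 34 (without D25 replicate 1) for replicate 2. A replicate block gave 18, 39, 53, 56 and 83 in D7 vs D0, D10 vs D7, D25 vs D10, D32 vs D25 and D32 vs D4, and 77 in place of 74 in D25 vs D15. Sign changes were looked for among the single named results, where the main run or the alternative made a call. There they were seen only with copy rows added, which joins the counts split between rows. They were Rpl26 in D7 vs D0 (-0.07), Rps13, Rpl3 and Rpl5 in D4 vs D0 (0.31, 0.41 and 0.83), Rpl5 in D15 vs D10 (0.58), and Rpl3 and Rps3a1 in replicate 2 (-0.12 and -0.09). The median over members in D7 vs D0 turned from -0.16 to 0.04 with library size alone. Over all pairs of a single named result and a library left out, 198 pairs lost and 53 gained the call. The other 7075 kept their status, called or not called. Over pairs with another setting, 139 lost and 94 gained the call, and 2698 kept their status, called or not called. Depth limits Rpl3l, Rpl10l and Rpl39l, with 5.4, 1.98 and 0 counts over the 3 libraries of D10.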
